A study of Homo sapiens with 10 samples.

Results

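The gene group described here is CENPU with CENPQ, CENPO, ITGB3BP and MLF1, the genes for the proteins that CENPU contacts most directly. Its 5 genes were chosen by name among the 14884 genes with a named row in the deposited table, and each had 1 row, so all 5 were measured. RNA came from clones of PC-3, an established human prostate cancer line, that had received a lentiviral vector and blasticidin selection in both groups. In the CENPU clones (1, 4, 5, 7 and 13) the vector carried CENPU, and in the control clones (1 to 5) it was empty, with 1 array per clone. The promoter that drives CENPU in the vector is not stated. Each clone is a single isolate, so differences between isolates are part of the spread within each group, and p-values set the group difference against that spread.

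CENPU is a subunit of the constitutive centromere-associated network, whose proteins sit on centromeric chromatin through the cell cycle and carry the kinetochore. Within it, CENPU pairs with CENPQ, CENPO pairs with CENPP, and both pairs join with the product of ITGB3BP, also called CENP-R, in one subcomplex. CENPU is also a docking site for the mitotic kinase PLK1. MLF1, myeloid leukaemia factor, binds CENPU, which was earlier named MLF1IP for that interaction, but is not a centromere subunit.

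Values are deposited log2 expression values, on which a difference of 1 is a doubling. They lay between 1.65 and 15.0 over 53617 rows, and array medians were 4.62 to 4.76. Of the 5 measured epithelial markers, HOXB13 was at 11.1 to 11.6 in CENPU clones and 10.7 to 11.0 in control clones, and was higher in CENPU clones by 0.42 on the log2 scale (limma adjusted p = 0.0323). KRT18 was at 10.3 to 11.1 in CENPU clones and 10.7 to 11.1 in control clones, and KRT19 at 10.5 to 11.2 in CENPU clones and 10.2 to 10.9 in control clones. KRT8 was at 6.60 to 7.07 in CENPU clones and 6.36 to 6.99 in control clones, and EPCAM at 5.97 to 7.62 in CENPU clones and 5.74 to 6.12 in control clones. Markers of other cells were also read, the stromal genes DCN and LUM at 2.55 to 3.11 in CENPU clones and 2.69 to 3.13 in control clones, and the monocyte gene CD14 at 4.08 to 4.30 in CENPU clones and 4.01 to 4.52 in control clones. The endothelial genes VWF and PECAM1 ranged over 4.18 to 6.21 in CENPU clones and 4.41 to 5.34 in control clones, and the prostate secretory genes KLK2 and KLK3, low or absent in PC-3, over 5.33 to 5.78 in CENPU clones and 5.38 to 5.70 in control clones. Of 24 marker genes sought, 12 had a named row. Pearson correlations between arrays over the named rows were 0.955 to 0.991 among CENPU clones, 0.977 to 0.993 among control clones and 0.918 to 0.986 across groups.

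CENPU itself read 9.37, 9.58, 8.70, 9.22 and 9.84 in CENPU clones 1, 4, 5, 7 and 13, against 6.43, 5.78, 6.30, 6.24 and 6.56 in control clones 1 to 5. The lowest CENPU clone, 5, lay above the highest control clone, 5, so CENPU separated the clones as labelled. The fold between the groups was 8.44, with a 95% interval of 6.19 to 11.5. The log2 difference of 3.08 (standard error 0.20) passed in limma with a Benjamini-Hochberg adjusted p of 2.89e-05 over 16098 named rows. Only 0.0186% of named rows had a log2 difference that large or larger. The row does not tell the vector's transcript from that of the cell's own gene. RefSeq also lists the pseudogenes CENPUP1 and CENPUP2, whose RNA might bind the same probes. How much each source adds to the value was not tested, nor was background for single probes, so the fold is that between deposited values.

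**Figure D1:**
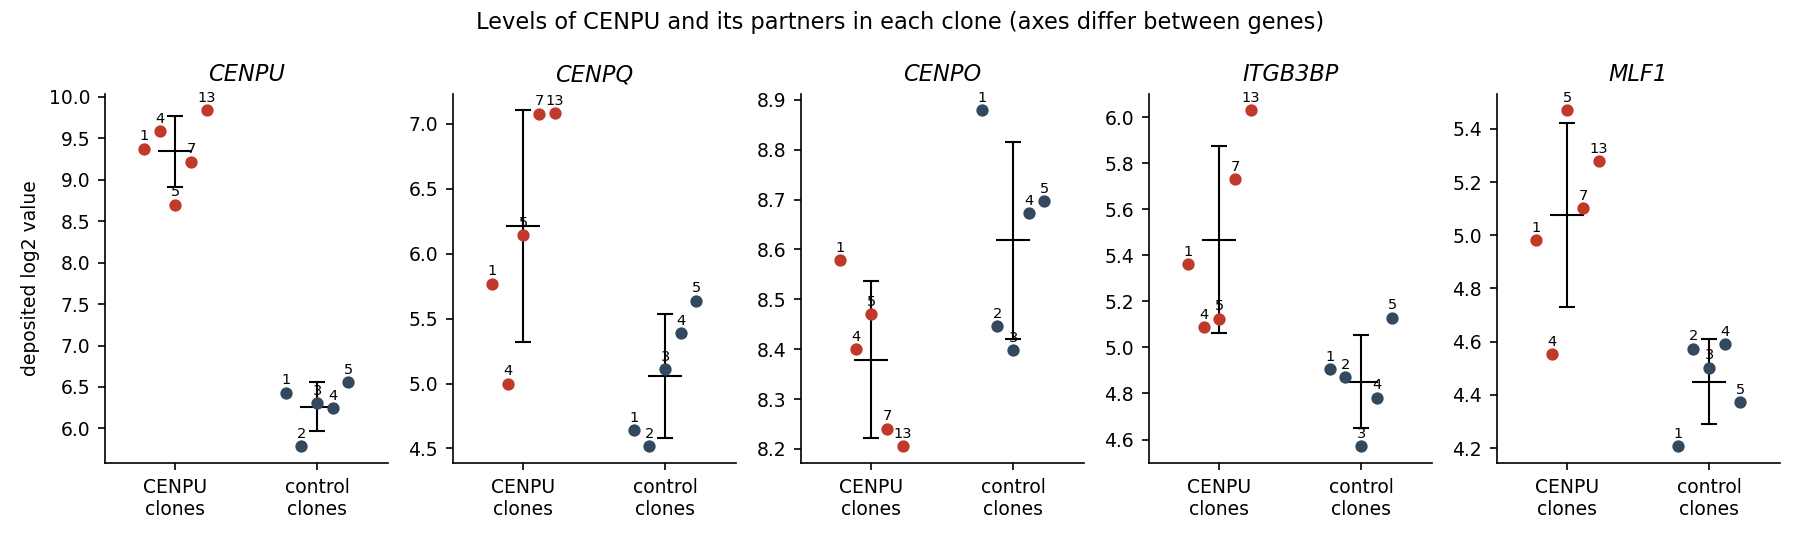
Deposited log2 values of CENPU, CENPQ, CENPO, ITGB3BP and MLF1 in 5 CENPU clones (red, left) and 5 control clones (dark blue, right), each point marked with its clone number and each bar giving the mean and SD. Axes differ between genes. The groups are apart for CENPU, and CENPU clones 7 and 13 are at the top for CENPQ and ITGB3BP and at the bottom for CENPO.

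Of the 4 partners, MLF1 passed as higher in CENPU clones, 0 passed as lower, and CENPQ, CENPO and ITGB3BP did not pass. Over all named rows 10.2% passed in either direction, 5.27% as higher and 4.89% as lower. At an unadjusted p under 0.05, CENPQ, ITGB3BP and MLF1 were below and CENPO was not, against 27.6% of named rows. The partners lay between a log2 difference of -0.24 for CENPO and 1.15 for CENPQ, so the 3 partners with a positive difference were CENPQ, MLF1 and ITGB3BP. Only CENPU had groups that did not overlap, among the 5 genes, and 9.78% of named rows had such groups, 4.49% with the CENPU clones higher. In each partner the difference was smaller than that of CENPU itself. The gap between the log2 difference of CENPU and that of the partner was 1.92 for CENPQ, with a standard error of 0.47. It was 2.45 for MLF1 (standard error 0.35), 2.46 for ITGB3BP (standard error 0.23) and 3.32 for CENPO (standard error 0.25). These gaps are a description, since CENPU is the gene that the vector carried.

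**Figure D2:**
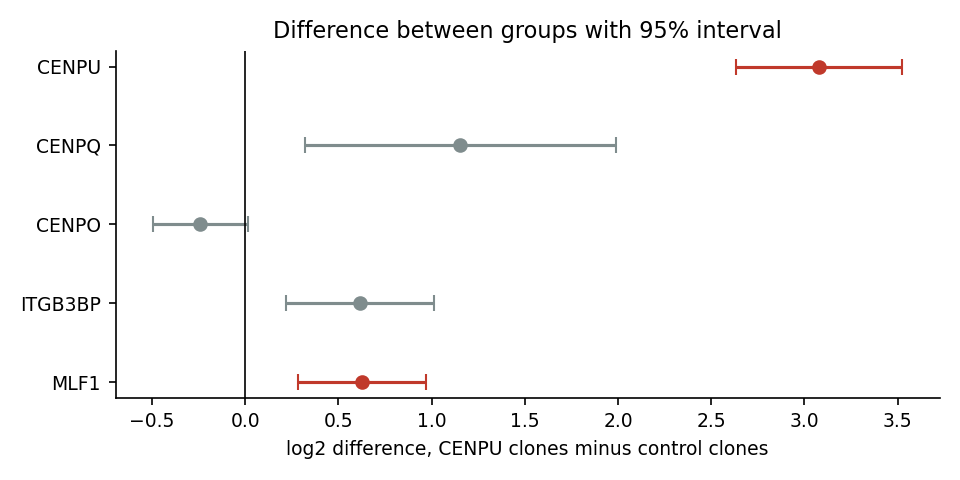
Log2 difference between 5 CENPU clones and 5 control clones for each gene, with its 95% interval from limma. Red marks CENPU and MLF1, which passed, and grey marks the genes that did not. CENPU stands at 3.08, CENPQ at 1.15 with the widest interval of the 5, and CENPO at -0.24.

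CENPQ, the direct dimer partner of CENPU, varied more between clones than any other gene of the group. It read 5.77, 5.00, 6.14, 7.08 and 7.08 in CENPU clones 1, 4, 5, 7 and 13, against 4.64, 4.52, 5.11, 5.39 and 5.64 in control clones 1 to 5. CENPU clones 7 and 13 were the highest of all, 4 of 5 CENPU clones lay above every control, and CENPU clone 4 lay inside the control range. The means were 6.21 ± 0.89 in CENPU clones and 5.06 ± 0.48 in control clones (SD, n = 5 each). All control clones lay below 5.77, the median of the row means of the named rows, and background was not tested. The log2 difference of 1.15 (standard error 0.38, 95% interval 0.32 to 1.99) did not pass, with a limma adjusted p of 0.0762 and an unadjusted p of 0.0108. A difference at least as large was found in 1.22% of named rows. The SD in CENPU clones was matched or exceeded by 1.24% of named rows, and that in control clones by 2.61%. Without CENPU clone 4 the difference was 1.46 and passed (limma adjusted p = 0.0191). Without CENPU clones 7 and 13 and control clone 2 together it was 0.44 (limma adjusted p = 0.470). The clones left out are the highest CENPU clones and the lowest control clone for CENPQ, so the difference had to shrink. Over all other settings it ran from 0.41 to 1.46. The low end came from a replicate block on clone number, which rests on clones 1, 4 and 5 of each group.

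MLF1 was the one partner that passed as higher, though its difference was smaller than that of CENPQ and close to that of ITGB3BP. It read 4.98, 4.55, 5.47, 5.10 and 5.28 in CENPU clones 1, 4, 5, 7 and 13, against 4.21, 4.57, 4.50, 4.59 and 4.37 in control clones 1 to 5. CENPU clone 5, the clone with the lowest CENPU level of its group, had the highest MLF1, and CENPU clone 4 was the one CENPU clone inside the control range. The means were 5.08 ± 0.35 in CENPU clones and 4.45 ± 0.16 in control clones (SD, n = 5 each). The log2 difference of 0.63 (standard error 0.16) passed with a limma adjusted p of 0.0295. The call changed with the clones used: it was kept in 2 of the 10 fits that left out 1 clone (CENPU clone 1 or 4) and lost in the other 8, with log2 differences of 0.53 to 0.76 and limma adjusted p of 0.00826 to 0.0683. Without CENPU clones 7 and 13 and control clone 2 the difference was 0.58 (limma adjusted p = 0.146). MLF1 levels were close to the array medians of 4.62 to 4.76, which cover all rows. They were below 5.77, the median of the row means of the named rows, in every clone. Whether they lay above background was not tested.

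ITGB3BP, which encodes CENP-R and was also described as a coregulator of nuclear receptors, gave a difference close to that of MLF1 in size, with a p just over the threshold. It read 5.36, 5.09, 5.13, 5.73 and 6.03 in CENPU clones 1, 4, 5, 7 and 13, against 4.90, 4.87, 4.57, 4.78 and 5.13 in control clones 1 to 5. As for CENPQ, CENPU clones 13 and 7 were highest, while CENPU clones 4 and 5 lay beside control clone 5. The means were 5.47 ± 0.41 in CENPU clones and 4.85 ± 0.20 in control clones (SD, n = 5 each). Every clone but CENPU clone 13 lay below 5.77, the median of the row means of the named rows. Background was not tested. The log2 difference of 0.62 (standard error 0.18, 95% interval 0.22 to 1.01) had a limma adjusted p of 0.0523. It passed without CENPU clone 1 (0.64, limma adjusted p = 0.0499) or CENPU clone 4 (0.71, limma adjusted p = 0.0310). It was 0.35 without CENPU clones 7 and 13, the highest for this gene, and control clone 2 (limma adjusted p = 0.238).

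CENPO, a core subunit that pairs with CENPP, gave the one negative difference of the group. It read 8.58, 8.40, 8.47, 8.24 and 8.21 in CENPU clones 1, 4, 5, 7 and 13, against 8.88, 8.45, 8.40, 8.67 and 8.70 in control clones 1 to 5. The groups overlapped, and CENPU clones 7 and 13, highest for CENPQ and ITGB3BP, were lowest here. The means were 8.38 ± 0.16 in CENPU clones and 8.62 ± 0.20 in control clones (SD, n = 5 each). The log2 difference of -0.24 (standard error 0.12) did not pass, with a limma adjusted p of 0.204. Its 95% interval ran from -0.49 to 0.01, so a rise of the size seen for CENPQ or MLF1 lay outside it. CENPO had the smallest SD of the 5 genes in CENPU clones, and in control clones its SD lay between those of ITGB3BP and MLF1.

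Promoter sequences were compared because CENPQ, ITGB3BP and MLF1 had positive differences while CENPO did not, and all 5 genes were found in the RefSeq promoter table of build GRCh38.p14. Each window spans 250 bases before the start site to 50 after it. Shown are CENPU, whose own promoter is printed for the cell's copy of the gene, CENPQ and MLF1, the partners with the largest differences, and CENPO. Motifs searched on both strands were TTTGAA, the cell cycle homology region found in many promoters of mitotic genes, CCAAT, bound by NF-Y, and GGCGGGA, a core form of the E2F site. Capitals mark these matches, which do not overlap each other, in sequences written 5′ to 3′ on the strand of the gene.
CENPU, chr4:184734047-184734346, minus strand: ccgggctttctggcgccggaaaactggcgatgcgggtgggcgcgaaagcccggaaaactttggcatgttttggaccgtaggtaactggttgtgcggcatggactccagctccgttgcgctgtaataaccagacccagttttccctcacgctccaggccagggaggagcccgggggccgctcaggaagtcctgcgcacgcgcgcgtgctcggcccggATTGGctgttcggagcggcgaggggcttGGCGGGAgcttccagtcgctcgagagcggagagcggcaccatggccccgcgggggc
CENPQ, chr6:49463120-49463419, plus strand: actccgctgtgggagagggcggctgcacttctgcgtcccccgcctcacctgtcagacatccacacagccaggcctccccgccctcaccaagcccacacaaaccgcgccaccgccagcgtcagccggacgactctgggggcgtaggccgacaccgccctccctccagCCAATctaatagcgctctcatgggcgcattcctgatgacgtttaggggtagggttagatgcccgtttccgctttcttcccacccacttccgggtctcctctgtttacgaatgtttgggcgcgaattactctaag
MLF1, chr3:158570944-158571243, plus strand: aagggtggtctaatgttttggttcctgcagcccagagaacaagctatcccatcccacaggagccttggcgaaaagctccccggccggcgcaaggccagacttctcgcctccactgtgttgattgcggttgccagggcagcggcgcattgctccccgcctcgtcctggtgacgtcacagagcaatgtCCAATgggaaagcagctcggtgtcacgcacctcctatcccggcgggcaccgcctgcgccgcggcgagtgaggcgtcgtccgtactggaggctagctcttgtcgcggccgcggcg
CENPO, chr2:24793175-24793474, plus strand: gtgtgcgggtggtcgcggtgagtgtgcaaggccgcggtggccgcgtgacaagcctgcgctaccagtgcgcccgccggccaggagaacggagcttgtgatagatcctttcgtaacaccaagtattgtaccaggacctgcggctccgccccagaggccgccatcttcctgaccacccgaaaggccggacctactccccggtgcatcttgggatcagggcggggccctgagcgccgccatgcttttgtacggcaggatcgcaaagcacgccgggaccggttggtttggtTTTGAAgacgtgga
The CENPU window held 1 CCAAT match on its opposite strand and 1 GGCGGGA match, the CENPQ and MLF1 windows 1 CCAAT match each, and the CENPO window 1 TTTGAA match after the start site. The ITGB3BP window, not printed, held 0 matches. It lies at chr1:63523176-63523475 on the minus strand, inside the listed gene span of 63440770 to 63529187. Its start site is thus within that span, and the outer end of the gene was not searched. The other windows lie at the listed 5′ end of their gene. Of 35093 RefSeq promoter windows, 34.6% held CCAAT, 15.2% held TTTGAA and 15.4% held GGCGGGA. Among the 22180 windows of protein-coding genes the shares were 34.7%, 12.4% and 19.5%. A match is a description of these letters and not a binding site, and the share of CCAAT matches among all windows is high.

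Inside the groups the partners did not follow CENPU in a way that passed a test. A slope of each partner on the CENPU level, taken as deviation from the group mean, was fitted in limma together with the group over 16097 rows. At an adjusted p under 0.05, 0 rows (0%) passed, and 5.84% of rows (940) had an unadjusted p under 0.05. The slope, in log2 units of the partner per log2 unit of CENPU, was 0.38 for CENPQ (standard error 0.59, limma adjusted p = 0.945). It was 0.41 for ITGB3BP (standard error 0.26, limma adjusted p = 0.911), 0.02 for CENPO (standard error 0.18, limma adjusted p = 0.991) and -0.38 for MLF1 (standard error 0.22, limma adjusted p = 0.911). The 95% intervals of the slopes were -0.93 to 1.69 for CENPQ, -0.17 to 0.98 for ITGB3BP, -0.39 to 0.43 for CENPO and -0.87 to 0.11 for MLF1, so 0 lay inside each of the 4. For CENPQ and CENPO the direction turned with the clones used, and the slope of CENPQ was -0.92 without CENPU clones 7 and 13 and control clone 2.

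**Figure D3:**
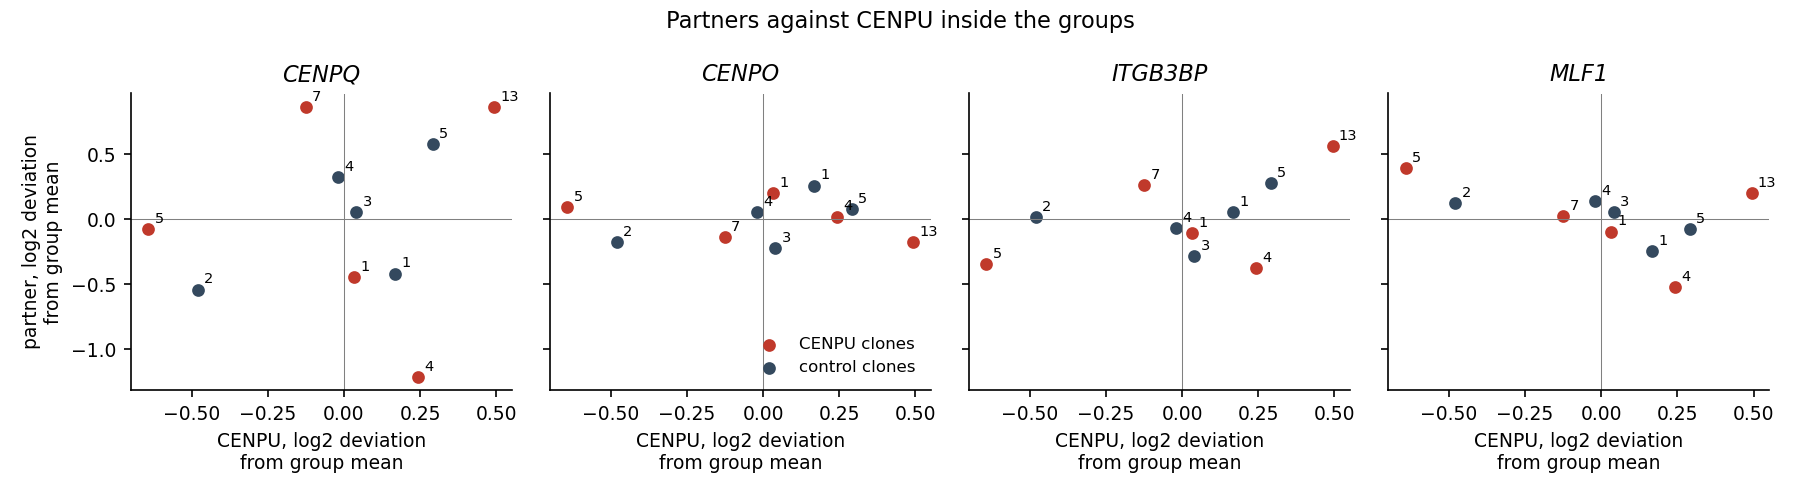
Deviation of each partner from its group mean (vertical axis, log2) against that of CENPU (horizontal axis, log2) in 5 CENPU clones (red) and 5 control clones (dark blue), each point marked with its clone number. CENPU clones 7 and 13 share their CENPQ deviation although their CENPU levels differ, and the MLF1 points run from upper left to lower right apart from CENPU clone 13.

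Clones were also compared by their order. Among the 10 pairs of clones within a group, the clone with more CENPU also had more CENPQ in 5 pairs of CENPU clones and 7 pairs of control clones. For ITGB3BP this held in 6 pairs of CENPU clones and 7 pairs of control clones, for CENPO in 3 pairs of CENPU clones and 7 of control clones, and for MLF1 in 3 pairs of CENPU clones and 2 of control clones. CENPU clone 4, second highest for CENPU, was the lowest of its group for CENPQ, ITGB3BP and MLF1, and CENPU clone 13, the highest for CENPU, was the lowest for CENPO. Among control clones, clone 5 was highest for CENPU, CENPQ and ITGB3BP, and clone 2 was lowest for CENPU and CENPQ. The slope in CENPU clones minus that in control clones was -0.95 for CENPQ, with a standard error of 1.31 and a limma adjusted p of 0.969. It was -0.56 for CENPO, 0.30 for ITGB3BP and -0.03 for MLF1 (limma adjusted p of 0.925 to 0.997). In that fit 0 of 16097 rows (0%) passed and 5.65% had an unadjusted p under 0.05.

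Correlations of these deviations over the 10 clones were computed for all 10 pairs of the 5 genes, with exact permutation of clones within groups. CENPU gave Pearson's r of 0.20 with CENPQ (Spearman's rho 0.25, exact p = 0.666 and 0.547), 0.47 with ITGB3BP (rho 0.38, exact p = 0.248 and 0.351) and 0.05 with CENPO (rho -0.10, exact p = 0.901 and 0.794). With MLF1 it was -0.52 (rho -0.39, exact p = 0.184 and 0.338). Without CENPU clone 5 and control clone 2, the clones farthest from the median of CENPU, the MLF1 relation was -0.06 over 8 clones. Leaving them out also narrows the range of CENPU. Without CENPU clone 13 the slope of MLF1 on CENPU was -0.69, so the relation depended on which clones were kept. The highest of the 10 was CENPQ with ITGB3BP, at r = 0.73 and rho 0.70 (exact p = 0.0571 and 0.0735, Benjamini-Hochberg over 10 pairs 0.571 and 0.676). It was 0.51 over 8 clones without CENPU clones 4 and 13. None of the 10 pairs had an exact p under 0.05, in r or in rho.

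The members were also set against the level of proliferation genes in each clone, and no relation passed after adjustment. A list of 21 genes of G2 and M phase, of which 15 were measured, averaged 8.07, 8.11, 8.41, 8.78 and 9.11 in CENPU clones 1, 4, 5, 7 and 13. In control clones 1 to 5 it averaged 8.21, 6.97, 7.33, 7.77 and 8.01. CENPU clones 7 and 13 were thus the highest for this list too, and control clone 2 the lowest. The group means were 8.50 ± 0.45 in CENPU clones and 7.66 ± 0.51 in control clones (SD, n = 5 each). Deviations of CENPQ from its group mean gave r = 0.66 with those of the list (rho 0.76, exact p = 0.0418 and 0.0251), and those of ITGB3BP r = 0.69 (rho 0.70, exact p = 0.0408 and 0.0429), over 10 clones on the same arrays. Without control clone 2 and CENPU clone 13 these were 0.47 and 0.75 over 8 clones. Of 10 relations computed between the 5 genes and 2 values of the clones, these were the lowest p, and none was below 0.193 after Benjamini-Hochberg adjustment. For CENPO r was 0.18 and for MLF1 0.09. The part of proliferation in the differences between the groups was not tested.

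**Figure D4:**
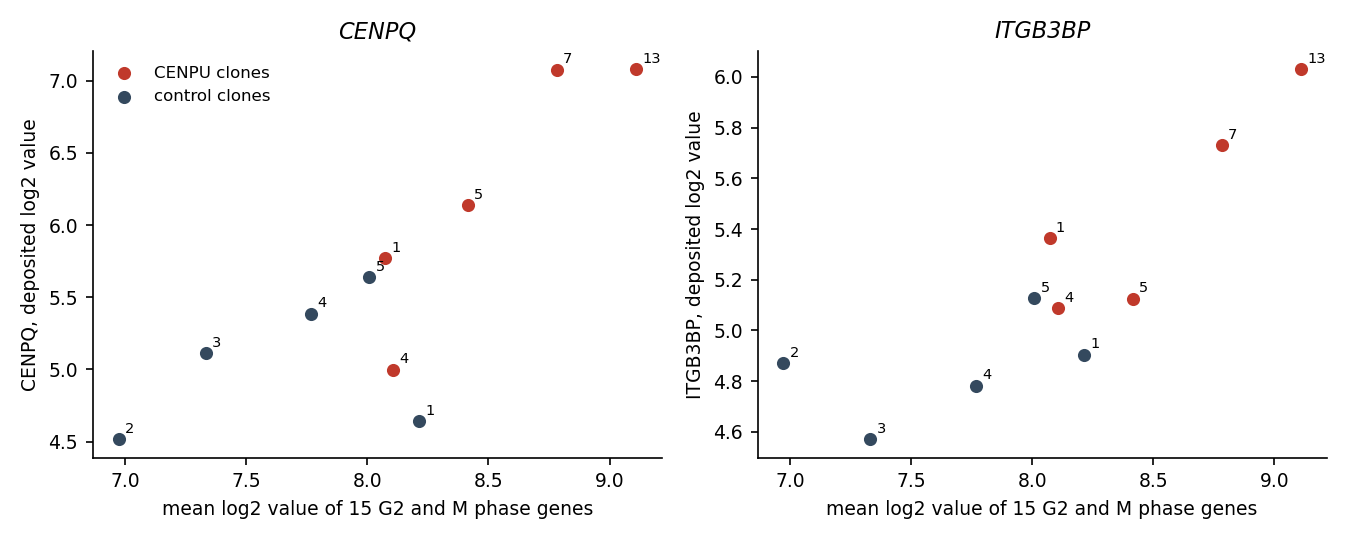
Deposited log2 values of CENPQ (left) and ITGB3BP (right) against the mean log2 value of 15 measured G2 and M phase genes in 5 CENPU clones (red) and 5 control clones (dark blue), each point marked with its clone number. CENPU clones 7 and 13 lie at the upper right of both panels, and CENPU clone 4 and control clone 1 lie below the other clones of similar list mean for CENPQ.

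A second value of the clones ran alongside. In each clone, Spearman's correlation of the deviation from the mean of all clones with the genomic span of the gene, over 11916 protein-coding genes, was -0.16, -0.04, 0.20, 0.32 and 0.36 in CENPU clones 1, 4, 5, 7 and 13, against -0.09, -0.36, -0.16, -0.28 and -0.16 in control clones 1 to 5. CENPU clones 7 and 13 and control clone 2 stand at its ends. The group means of this value also differed, at 0.14 ± 0.23 in CENPU clones and -0.21 ± 0.10 in control clones (SD, n = 5 each). Deviations of CENPQ gave r = 0.72 with this value (rho 0.73, exact p = 0.0736 and 0.0579), and 0.42 over 8 clones without CENPU clones 1 and 4. It was 0.57 for ITGB3BP (0.46 over the same 8 clones), 0.36 for MLF1 (-0.80), 0.20 for CENPU (0.82) and -0.30 for CENPO (0.20), so the values of MLF1, CENPU and CENPO depended on those clones. With the trend removed from each array, the log2 difference was 1.12 for CENPQ, 0.47 for ITGB3BP and 0.57 for MLF1, which passed (limma adjusted p = 0.0394).

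The genes whose deviations were most like those of each member over the 10 clones were taken among 11915 protein-coding genes, as a description. For CENPU they were SAFB2 (r = 0.97), which encodes a scaffold attachment factor, MEAF6 (0.93), a histone acetyltransferase subunit, PCNT (0.92), the pericentrin of the centrosome, DCAF4 (0.91) and NEMF (0.90), a factor of ribosome quality control. ITGB3BP ranked 1512 and CENPQ 4472 in that order, and CENPO and MLF1 ranked 6110 and 11049. For CENPQ they were KRT10 (0.95), CLHC1 (0.94), the survival factor MCL1 (0.94), CIP2A (0.94), an inhibitor of protein phosphatase 2A, and the ESCRT subunit VPS37A (0.94), with ITGB3BP at rank 1404. For ITGB3BP they were ENY2 (0.94), ZNF570 (0.94), CNIH1 (0.93), SAAL1 (0.93) and TMCC1 (0.91), and CENPQ ranked 554. For CENPO they were HEBP1 (0.97), CSTL1 (0.95), SEPHS1 (0.92), HEATR9 (0.92) and FILIP1L (0.91). For MLF1 they were SPRY4 (0.92), SATL1 (0.91), UNK (0.91), FBXO48 (0.91) and CCNJL (0.90). No member was among the 5 nearest genes of another, since ranks of members ran from 548 to 11049. Among these nearest genes, NEMF (0.75 on the log2 scale), ENY2 (0.92) and HEBP1 (-0.55) differed between the groups (limma adjusted p of 0.0205 to 0.0336). These were 3 of the 25 nearest genes (12%), near the 10.2% of all named rows that passed. The correlations above are the highest picked from 11915 genes over 10 clones and were not tested. In the fit of slopes on CENPU, 0 of 16097 rows passed.

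The rest of the inner centromere network gave 1 gene higher and 3 lower among 11 measured of 12, while 7 missed the threshold. Of all named rows, 5.27% passed as higher and 4.89% as lower. The median log2 difference of this network was 0.20, against -0.02 over all named genes. CENPW, a histone-fold subunit, rose by 1.07 on the log2 scale, and CENPT, its partner, fell by 0.65, CENPX by 0.63 and CENPM by 0.65 (limma adjusted p of 0.00483 to 0.0377). CENPP, the dimer partner of CENPO and the remaining subunit of the subcomplex, was named after its values were seen. It read 6.33, 6.21, 6.96, 7.51 and 7.47 in CENPU clones 1, 4, 5, 7 and 13, against 7.68, 7.23, 6.93, 7.26 and 7.39 in control clones 1 to 5. CENPU clones 7 and 13 were again the highest of their group, and the log2 difference of -0.40 (standard error 0.26) did not pass (limma adjusted p = 0.338). Without CENPU clones 7 and 13 and control clone 2, 0 of these 11 genes were higher, 1 was lower and the median was -0.16. The sign of the median also turned with the filter on dim rows, to -0.31, and with clone number as a replicate block, to -0.17. That block fit rests on clones 1, 4 and 5 of each group, so it too sets aside CENPU clones 7 and 13 and control clone 2, and also control clone 3.

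Of 6 measured genes of centromeric chromatin and its loading, 0 passed in limma in either direction, with a median log2 difference of 0.29. The median was 0.02 without CENPU clones 7 and 13 and control clone 2, and -0.08 with the replicate block. CENPA, the centromeric histone, and HJURP, its chaperone, were named after their values were seen and had differences of 0.09 and 0.03. RBBP4 (0.39), MIS18A (0.34), RBBP7 (0.45) and OIP5 (0.23) had the smallest p of the list. Of the 6, 1 had an unadjusted p under 0.05, against 27.6% of named rows. Among 9 measured mitotic kinases and outer kinetochore factors of 16, the kinase AURKB fell by 0.72 (limma adjusted p = 0.0147), 0 rose and 8 did not pass. The share of all named rows that passed was 10.2%. The call of AURKB was kept in each fit that left out 1 clone, and lost without CENPU clones 7 and 13 and control clone 2 together and with the replicate block. Neither of the latter fits compares CENPU clones 7 and 13 with the controls, so they are not separate checks. KNL1 (1.14), NDC80 (1.12) and BUB1B (0.55) were among those 8, with limma adjusted p of 0.0701 to 0.0990. PLK1, the kinase that docks on CENPU, was named after its values were seen and averaged 10.8 ± 0.11 in CENPU clones and 10.8 ± 0.44 in control clones (SD, n = 5 each), with a log2 difference of -0.07 (limma adjusted p = 0.829). BUB1, a kinase of the outer kinetochore also named after its values were seen, had a difference of 0.91 (limma adjusted p = 0.116).

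In the G2 and M phase list, 5 of 15 measured genes rose, 0 fell and the remaining 10 missed the threshold. The share of all named rows that passed as higher was 5.27%. The list median was 0.76 on the log2 scale. PRC1, a spindle midzone protein (0.81), the cyclin CCNB2 (1.22), the topoisomerase TOP2A (1.63) and the kinesin KIF4A (0.76) had the smallest p (limma adjusted p of 0.0191 to 0.0283). The count was 0, and the median 0.35, without CENPU clones 7 and 13 and control clone 2. Those are the highest CENPU clones and the lowest control clone for the list mean, so leaving them out lowers its difference by itself. Only 3 CENPU and 4 control clones remained in that fit. With 1 clone left out the count ran from 1 to 7. It was 1 without CENPU clone 7, 2 without CENPU clone 13 or control clone 2, 3 or 4, and 3 without control clone 5. It was 4 without CENPU clone 5, 5 without CENPU clone 4, and 7 without CENPU clone 1 or control clone 1. With array weights it was 7, and with the replicate block 0. Among the 5 measured of 10 binding partners that MLF1 and ITGB3BP have outside the centromere, 0 passed in limma, with a median of 0.20. The values were 0.47 for COPS3, a COP9 signalosome subunit, -0.16 for MLF2, the paralogue of MLF1, 0.20 for HAX1 and 0.60 for the cyclin CCNA2, with limma adjusted p of 0.113 to 0.277. Of the 5, 1 had an unadjusted p under 0.05, against 27.6% of named rows.

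**Figure D5:**
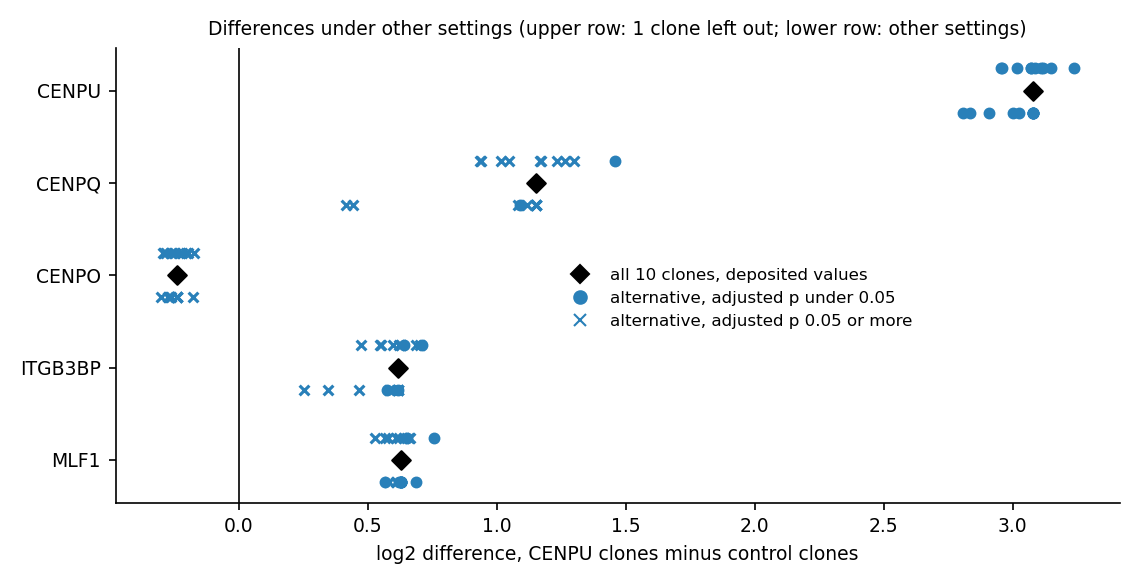
Log2 difference between CENPU and control clones for each gene with all 10 clones (black diamond), with 1 clone left out (upper points) and under the other settings (lower points), round where limma's adjusted p was under 0.05 and crossed where it was not. CENPU stayed between 2.81 and 3.24, CENPQ ran from 0.41 to 1.46, and MLF1 kept its size while its call was often lost.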

How the data were processed

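Total RNA of 10 PC-3 clones was biotin-labelled and hybridised to 1-channel Affymetrix arrays, per the labels' protocols. The log2 expression values used were deposited by the authors as 1 table of 53617 rows; the tools listed per the submitters' processing notes are Partek and RMA, with no version. The log2 scale was read from the range of the values, and steps after RMA and the array's genome build are not given in the sources used here. RMA removes changes that most genes share, and arrays have no total count.

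A platform table named 16098 rows, updated by gene ID to RefSeq (GRCh38.p14). Genes with several rows took the row of highest mean. Groups came from the sample titles. limma (version 3.58.1, R 4.3.3) used lmFit and eBayes without covariates, and p-values were adjusted by Benjamini-Hochberg over all named rows, with 0.05 as the threshold. Slopes on CENPU used its deviation from the group mean as a term. Correlations of single genes used exact permutation tests (two-sided), and fits were tested on simulated data. Named genes were the 5 members, up to 4 genes of each list by smallest p, and the 5 protein-coding genes nearest to each member. Cell markers were also named, as were further list genes where the text says their values had been seen. The members and lists were chosen with earlier results of these data known. Clone numbers do not mark shared batches in the labels, and no scan dates or scanner files were used here. Alternatives were other scalings, row filters, variance models and clone sets.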

Additional observations from a re-analysis of the deposited data

How the results depend on the processing

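CENPU passed as higher under all 20 alternatives, with log2 differences of 2.81 to 3.24, and CENPO did not pass under any of them (-0.30 to -0.17). The direction of CENPQ, ITGB3BP and MLF1 was kept in all 20. Leaving out 1 clone gave 0.94 to 1.46 for CENPQ, 0.48 to 0.71 for ITGB3BP and 0.53 to 0.76 for MLF1, with 0 to 3 partners called higher. With the filter on dim rows, which all 5 genes passed, ITGB3BP also passed (0.62, limma adjusted p = 0.0439), giving 2 partners called higher. With array weights CENPQ (1.09) and ITGB3BP (0.57) passed, giving 3. With clone number as a replicate block, a fit that rests on the 3 shared numbers, MLF1 was at 0.61 and 0 partners passed. Same-numbered clones gave correlations of deviations of -0.37, 0.10 and 0.02. Pairs of unlike number were not computed beside them, so these values cannot show whether the numbers pair the clones. The block fit in effect sets aside CENPU clones 7 and 13 and control clones 2 and 3. It is thus not a separate check from leaving out CENPU clones 7 and 13 and control clone 2, though that fit keeps control clone 3. Without CENPU clones 7 and 13 and control clone 2, MLF1 was at 0.58 and 0 partners passed. These clones lie at the ends for CENPQ and for the G2 and M list, so smaller differences there follow from leaving them out. That fit holds 3 CENPU and 4 control clones. Main calls in the lists were 6 distinct genes higher and 4 lower, 10 higher with array weights, 0 higher and 0 lower with the replicate block, 0 higher and 1 lower without those 3 clones, and 2 to 13 higher and 2 to 4 lower without 1 clone. The gaps between CENPU and the partner without those 3 clones were 2.39 (CENPQ), 3.01 (CENPO), 2.49 (ITGB3BP) and 2.25 (MLF1). Over fits without 1 clone the gaps were 1.56 to 2.17, 3.15 to 3.50, 2.31 to 2.56 and 2.26 to 2.71.

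Slopes on CENPU, none of which passed in limma, turned sign for CENPO under quantile normalization (-0.044) and removal of the span trend (-0.0037), and for CENPQ without those 3 clones (-0.92). Without 1 clone they were -0.16 to 0.78 (CENPQ), -0.10 to 0.17 (CENPO), 0.12 to 0.57 (ITGB3BP) and -0.69 to -0.17 (MLF1). Slope differences between groups were then -0.93 to 0.63 for ITGB3BP and -0.60 to 0.49 for MLF1. The cause of these changes was not tested. The number of clones limits all of these values, and background signal was not assessed for single probes.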
